A study of Mus musculus with 9 samples.

Results

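Microtubules are hollow polymers of a dimer made of 1 alpha and 1 beta tubulin, and mammals encode each partner of the dimer in several genes, the isotypes. The genes described here are 4 alpha isotypes (Tuba1a, Tuba1b, Tuba1c and Tuba4a) and 6 beta isotypes (Tubb2a, Tubb2b, Tubb3, Tubb4b, Tubb5 and Tubb6), chosen by name. Earlier results of these data were known when they were chosen. All 10 were found among the 55416 genes counted in the series, and 9 of them passed the filter on low counts, Tubb3 being left out. The cells were 4T1 cells, an established mammary carcinoma line of BALB/c mice, and RNA of 3 libraries was sequenced in each of 3 groups. The PBS group had been kept in DMEM medium alone, the MRC group in medium with MRC nanoparticles for 12 h, and the MRC+L group in medium with the same particles for 12 h and 3 min of red light at 660 nm, given in the sample characteristics as 180 mW/cm2. The labels do not spell out the letters MRC. Light without particles was not analysed here. Whether replicate libraries stem from different dishes of cells is not stated, and the p-values below therefore describe only the spread among these libraries, which may be technical.

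Within the alpha or the beta family, isotype proteins share most of their sequence and differ most in the acidic tail at the carboxyl end. There enzymes add or remove tyrosine and chains of glutamate or glycine. Cells hold tubulin RNA in balance with free tubulin: when free dimers accumulate, the protein TTC5 binds the first residues of a tubulin chain as it leaves the ribosome, and the RNA being translated is degraded by way of the CCR4-NOT deadenylase. Tubb3 is best known from neurons, Tubb2a and Tubb2b from neurons as well, and Tubb5, Tubb4b, Tuba1b and Tuba1c are broadly used in dividing cells.

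The start of the coding sequence is shown because it encodes the first residues, which TTC5 binds in the autoregulation. The first 24 coding bases are printed 5′ to 3′ with the first 4 codons in capitals, from the GENCODE M21 transcripts on GRCm38.
Tuba1a: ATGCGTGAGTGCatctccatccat
Tuba1b: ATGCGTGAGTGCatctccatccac
Tuba1c: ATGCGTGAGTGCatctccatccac
Tuba4a: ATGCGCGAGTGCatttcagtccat
Tubb2a: ATGCGCGAGATCgtgcacatccag
Tubb2b: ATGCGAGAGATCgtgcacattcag
Tubb3: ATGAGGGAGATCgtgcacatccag
Tubb4b: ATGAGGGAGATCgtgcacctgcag
Tubb5: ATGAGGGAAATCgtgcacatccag
The 12 capital bases were identical in Tuba1a, Tuba1b and Tuba1c. Those of Tubb3 and Tubb4b were identical to each other. This compares bases, and the encoded residues were not compared.

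The end of the coding sequence is shown because it encodes the tail that differs most between isotypes in general, though the printed ends of Tubb2a and Tubb2b are nearly the same. The last 57 coding bases of 5 isotypes are in lower case and the stop codon is in capitals, from the same transcripts.
Tuba1c: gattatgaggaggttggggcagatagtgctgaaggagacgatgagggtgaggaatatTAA
Tubb2a: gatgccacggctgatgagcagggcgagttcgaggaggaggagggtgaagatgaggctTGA
Tubb2b: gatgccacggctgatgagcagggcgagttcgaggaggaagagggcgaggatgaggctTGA
Tubb4b: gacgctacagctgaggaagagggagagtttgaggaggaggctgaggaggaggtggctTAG
Tubb5: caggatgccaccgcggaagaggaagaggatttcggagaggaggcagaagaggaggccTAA
Over the whole coding sequence Tuba1a and Tuba1b were 98.3% identical, Tuba1a and Tuba1c 97.1%, Tuba1b and Tuba1c 97.9%, and Tubb2a and Tubb2b 96.5%. Other pairs within the alpha or the beta family shared 80.2 to 85.7% of their bases, and pairs of an alpha with a beta isotype 53.3 to 55.9%.

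This likeness limits how reads could be assigned, because read pairs that mapped to several places were not counted. Of all 100-base windows of their transcripts, 65.1% for Tuba1a, 69.5% for Tuba1b and 53.4% for Tuba1c occurred letter for letter in a transcript of another gene. The shares were 36.9% for Tubb2a, 27.7% for Tubb2b and 29.2% for Tubb4b, the last mainly from the processed pseudogene Tubb4b-ps1. No such window of Tuba4a, Tubb3, Tubb5 or Tubb6 did. The counts of the first 6 genes are therefore uncertain as levels, and reads wrongly assigned between close copies were not measured. The pseudogene Tubb4b-ps1 itself held 3 to 14 counts in a library. Exons of Tuba4a overlapped exons of Stk16 on the other strand over 1379 bases, 37.3% of its counted length. Counting used no strand, so that reads there were ambiguous. The level of Tuba4a per kilobase and its share of alpha tubulin RNA may therefore be too low. Exons of Tuba1a over 473 bases and of Tuba1b over 426 bases also belong to the readthrough gene Gm49450, listed at 0 or 1 counts.

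In the coordinates of GRCm39, which the files use, the 3 close alpha genes lie together on chromosome 15: Tuba1b (ENSMUSG00000023004) at 98829306 to 98832446 and Tuba1a (ENSMUSG00000072235) at 98847718 to 98851584 on the minus strand, and Tuba1c (ENSMUSG00000043091) at 98927772 to 98935991 on the plus strand. Tuba4a (ENSMUSG00000026202) lies on chromosome 1 at 75190872 to 75196509, minus strand. The pair Tubb2a (ENSMUSG00000058672), at 34258257 to 34261990, and Tubb2b (ENSMUSG00000045136), at 34310731 to 34314449, lies on the minus strand of chromosome 13. Tubb3 (ENSMUSG00000062380) lies on chromosome 8 at 124138163 to 124148754, plus strand. Tubb4b (ENSMUSG00000036752) lies on chromosome 2 at 25112172 to 25114714 and Tubb5 (ENSMUSG00000001525) on chromosome 17 at 36144813 to 36149198, both on the minus strand. Tubb6 (ENSMUSG00000001473) lies on chromosome 18. All are annotated as protein-coding, and the counts are over all their exons, untranslated ones included.

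The libraries held 15019765 to 20044166 counted read pairs, of which the 10 isotypes took 0.383 to 0.535% in PBS, 0.281 to 0.303% in MRC and 0.241 to 0.252% in MRC+L. The PBS libraries differed among themselves far more than the others, with a biological coefficient of variation, the spread of a gene beyond counting error, of 0.280 against 0.0807 in MRC and 0.0580 in MRC+L. The library labelled PBS replicate 2 stood apart: its short genes exceeded its long genes by 0.920 on the log2 scale relative to the mean library, against -0.249 to 0.0843 in the other 8. The isotype genes are short to middling, at percentiles 13.2 (Tubb2a) to 44.4 (Tuba4a) of the length of the tested genes, and PBS replicate 2 was the highest PBS library for 8 of the 9 tested isotypes, all but Tubb2b. Changes in an isotype's call, and the main changes in the counts of gene lists, when it was left out are given beside the results. As markers of the line, Krt8 and Krt18 were abundant at 718 and 577 CPM in PBS, while Cdh1 stood at 4.66 CPM and Epcam at 0 to 5 counts in any library. Of 8 neuronal markers 6 were listed at 0 in every library, and the summed level of the 8 was at most 0.335 CPM. Of the leukocyte markers, Cd3e was at 0 everywhere and Ptprc at 0 to 3 counts, while Cd68 rose from 9.38 CPM in PBS to 19.3 in MRC and made up nearly all of their sum (7.05 to 12.1 CPM in PBS, 16.7 to 22.3 in MRC, 17.5 to 19.6 in MRC+L). The 5 fibroblast markers summed to 43.2 to 78.2 CPM in PBS, 75.4 to 93.2 in MRC and 73.7 to 83.5 in MRC+L, with Pdgfra higher and Pdgfrb lower in MRC against PBS, and the 4 endothelial markers to at most 7.42 CPM. The summed epithelial markers moved with the groups, at 973 to 1733 CPM in PBS, 544 to 577 in MRC and 484 to 502 in MRC+L, with 2 of 4 tested lower and 1 (Krt14) higher in MRC against PBS. The part of the leukocyte, fibroblast and epithelial markers in the isotype results was not tested. In bulk RNA fewer cells of a type and less RNA per cell cannot be told apart.

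Levels are given in the unit CPM, the count relative to the library total after TMM scaling, and are divided by counted gene length in kilobases wherever isotypes are compared with each other. In PBS, Tubb5 and Tuba1b led with 583 ± 77.9 and 518 ± 121 CPM per kilobase (mean ± SD, n = 3, as throughout), and their libraries overlapped. Tubb4b followed at 325 ± 83.2, overlapping Tuba1b, then Tuba1c at 139 ± 31.9, Tubb6 at 127 ± 26.5 and Tuba1a at 102 ± 27.3, each overlapping its neighbour in this order. Tuba4a at 42.8 ± 13.2, Tubb2a at 9.997 ± 2.18, Tubb2b at 0.595 ± 0.139 and Tubb3 at 0.0198 ± 0.0173 CPM per kilobase were each apart from the next. The order in MRC was the same but for Tuba1a and Tubb6, which overlapped at 74.7 ± 2.18 and 74.6 ± 2.28, and in MRC+L no neighbours overlapped. The place of Tuba4a is limited by its overlap with Stk16, given above. In every group 1 alpha gene, Tuba1b, and 2 beta genes, Tubb5 and Tubb4b, led the order.

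**Figure D1:**
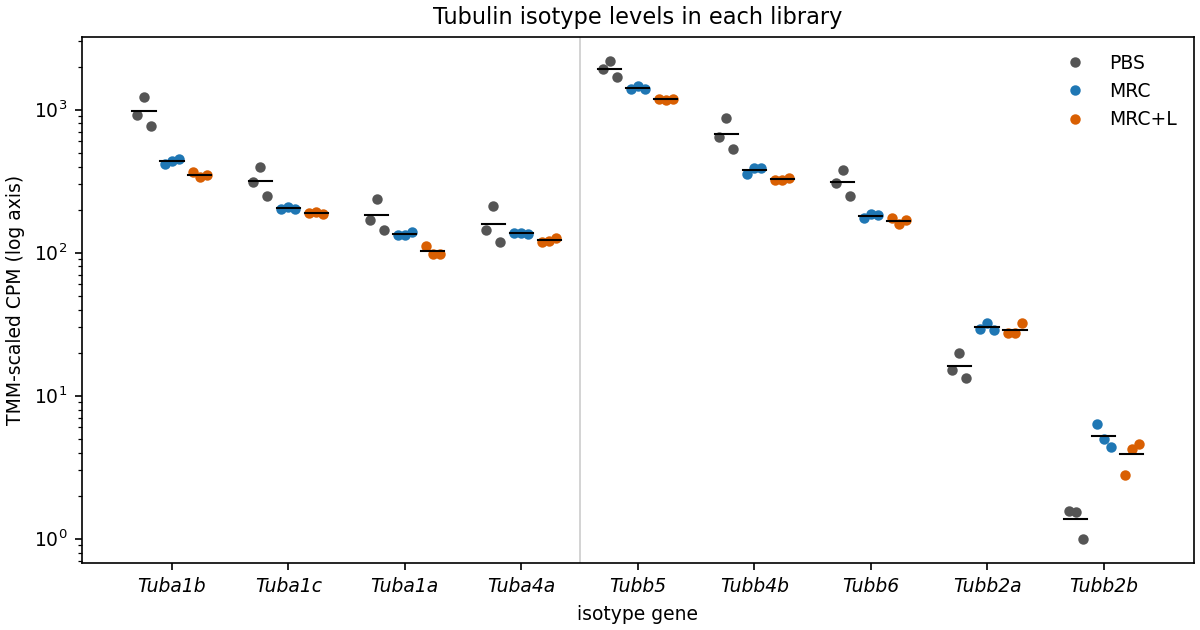
Level of the 9 tested isotypes in each library, as TMM-scaled CPM not divided by length, on a log axis. Points are libraries, bars are group means, and the vertical line separates alpha from beta isotypes. In 7 isotypes the 3 MRC+L points lie below the 3 MRC points, while the Tubb2a and Tubb2b points of both nanoparticle groups lie above PBS.

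Nanoparticles against medium asked what 12 h with MRC did to the isotypes without the red light. The abundant isotypes fell and the scarce pair Tubb2a and Tubb2b rose: of 9 tested, 5 fell (Tuba1b, Tuba1c, Tubb4b, Tubb5, Tubb6), 2 rose and 2, Tuba1a and Tuba4a, did not pass the test. Among all 13439 genes tested 19.8% were called lower and 17.8% higher at an adjusted p under 0.05, by edgeR's quasi-likelihood test with Benjamini-Hochberg adjustment, which is the test meant below unless another is named. The median log2 fold change of the 9 was -0.45, beside -0.03 for all genes tested. The 3 MRC libraries lay below the 3 PBS libraries for 6 of the 9 isotypes and for 24.2% of all genes tested. They lay above for 2 isotypes and for 24.1% of genes. For MRC+L against PBS the isotypes were the same, beside 28.1% of genes below and 28.2% above. Separation from PBS, given for single genes below, is to be read against these shares.

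Tuba1b, the main alpha isotype, fell the most. Its level was 924, 1217 and 772 CPM in the PBS libraries, 415, 434 and 453 in MRC and 369, 338 and 348 in MRC+L. The lowest PBS library lay well above every nanoparticle library, and all 3 MRC+L libraries lay below all 3 MRC libraries. The log2 fold change of MRC against PBS was -1.16 ± 0.16 (SE), a 2.24-fold lower level (adjusted p = 0.000319). With 1 library left out it ranged from -1.30 to -0.97, and with the length trend removed it was -0.97, called each time.

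Tuba1c, its close neighbour, stood at 310, 394 and 249 CPM in PBS, 203, 210 and 203 in MRC and 189, 191 and 186 in MRC+L. The 3 groups did not overlap, and the change of MRC against PBS was -0.63 ± 0.15 on the log2 scale (adjusted p = 0.00784). It ranged from -0.78 to -0.45 with 1 library left out and was -0.48 with the length trend removed, called each time. Tuba1a stood at 169, 239 and 144 CPM in PBS, 132, 132 and 139 in MRC and 111, 97.1 and 98.3 in MRC+L. Its PBS and MRC libraries were separated by a small step only, and its log2 fold change of -0.45 ± 0.17 missed the threshold (adjusted p = 0.0574). Without PBS replicate 2 the value was smaller but passed (-0.22, adjusted p = 0.0439), as the spread was smaller too, and without PBS replicate 3 it was -0.60 (adjusted p = 0.00687). Tuba1a also passed with the length trend removed (-0.24, adjusted p = 0.0424) and with no filter on low counts (-0.42, adjusted p = 0.0283). It did not pass with DESeq2 size factors (adjusted p = 0.0572) or upper-quartile factors (adjusted p = 0.0530).

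Tuba4a, an alpha isotype whose gene itself encodes no final tyrosine, was at 145, 213 and 118 CPM in PBS, 136, 138 and 136 in MRC and 119, 121 and 126 in MRC+L. The PBS libraries lay on both sides of the MRC libraries. Its log2 fold change of -0.21 ± 0.18 did not pass (adjusted p = 0.376), turned to 0.05 without PBS replicate 2 (adjusted p = 0.674) and reached -0.39 without PBS replicate 3 (adjusted p = 0.0498).

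Tubb5, the most abundant isotype, was at 1934, 2200 and 1682 CPM in PBS, 1390, 1470 and 1398 in MRC and 1196, 1160 and 1181 in MRC+L. The groups formed 3 separate steps. The log2 fold change of MRC against PBS was -0.45 ± 0.12 (adjusted p = 0.0130). This call was lost without MRC replicate 1 (adjusted p = 0.0553), without MRC replicate 3 (adjusted p = 0.0519) and when the 2 groups were fitted alone (adjusted p = 0.0611).

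Tubb4b was at 639, 867 and 526 CPM in PBS, 356, 390 and 394 in MRC and 324, 322 and 330 in MRC+L. Tubb6 was at 305, 377 and 248 CPM in PBS, 176, 187 and 183 in MRC and 175, 157 and 168 in MRC+L. Both had every PBS library above every nanoparticle library, with log2 fold changes of MRC against PBS of -0.83 ± 0.16 for Tubb4b (adjusted p = 0.00293) and -0.77 ± 0.14 for Tubb6 (adjusted p = 0.00215). With 1 library left out these ranged from -0.99 to -0.62 for Tubb4b and from -0.91 to -0.61 for Tubb6. Removal of the length trend gave -0.66 and -0.64, and both genes were called each time.

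The rising pair was scarce. Tubb2a was at 15.1, 20.0 and 13.2 CPM in PBS, 29.4, 32.0 and 28.6 in MRC and 27.4, 27.5 and 32.1 in MRC+L, so that every nanoparticle library exceeded every PBS library. Its level was 1.86-fold higher in MRC than in PBS, a log2 fold change of 0.90 ± 0.16 (adjusted p = 0.00153). PBS replicate 2, whose short genes were high, was also the highest PBS library for Tubb2a, and without it the difference was 1.08, the largest value with any library left out. Tubb2b rested on 30, 26 and 16 counts in PBS, 100, 86 and 88 in MRC and 52, 63 and 78 in MRC+L. The PBS counts were all below those of both other groups, and the log2 fold change of MRC against PBS was 1.92 ± 0.28 (adjusted p = 0.000543). Of its 2083 windows of 100 bases 543 also occur in Tubb2a.

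Tubb3, the beta isotype best known from neurons, had 1, 1 and 0 counts in PBS, 3, 2 and 1 in MRC and 0, 2 and 6 in MRC+L. A count of 0 allows up to 3 counts, here 0.150 to 0.200 CPM by counting error alone, so Tubb3 was at or near the limit of detection in 8 of 9 libraries and no change could be read.

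**Figure D2:**
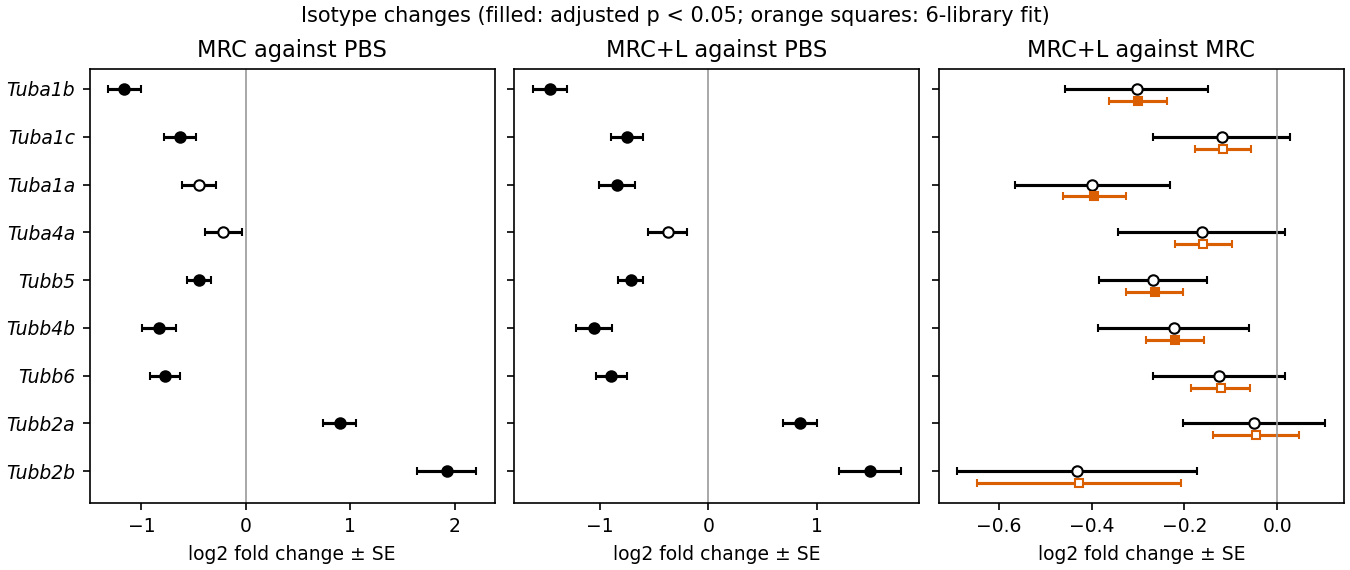
Log2 fold changes with standard errors for the 9 tested isotypes in the 3 comparisons, on axes of different range. Filled symbols passed an adjusted p of 0.05. Orange squares in the right panel come from a fit to the 6 MRC and MRC+L libraries alone, in which Tuba1a, Tuba1b, Tubb5 and Tubb4b passed.

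Nanoparticles with light against medium gave the same 2 isotypes higher and 6 lower, Tuba1a now among them, where 21.8% of all genes tested were called higher and 24.5% lower. The comparison shares its PBS libraries with the one above. Tuba1b was 2.76-fold lower (log2 fold change -1.47 ± 0.16, adjusted p = 6.1e-05), Tubb4b 2.08-fold lower (adjusted p = 0.000598), Tubb6 1.86-fold lower (adjusted p = 0.000725) and Tuba1a 1.80-fold lower (adjusted p = 0.0025). Tuba1c was 1.68-fold and Tubb5 1.64-fold lower (adjusted p = 0.00253 and 0.000843). Tubb2a was 1.80-fold and Tubb2b 2.81-fold higher (adjusted p = 0.00172 and 0.00204). Tuba4a did not pass at -0.38 ± 0.18 (adjusted p = 0.111), but passed without PBS replicate 3 at -0.55 (adjusted p = 0.00902). The median of the 9 was -0.75, beside -0.03 for all genes tested.

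Light added to nanoparticles was the comparison of MRC+L with MRC. All 9 tested isotypes had a log2 fold change below 0, between -0.05 for Tubb2a and -0.43 for Tubb2b, and none was called in the fit to all 9 libraries, in which 0% of genes were called higher and 0% lower (adjusted p = 0.988 for each isotype). At an unadjusted p under 0.05 that fit held 573 genes, 254 higher and 319 lower, 2 isotypes among them (Tuba1a and Tubb5). DESeq2 called 12 genes higher and 11 lower, with no isotype among them. The spread in that fit is shared with the variable PBS libraries. Without PBS replicate 2, Tuba1a passed there at -0.39 (adjusted p = 0.0267). Fitted to the 6 MRC and MRC+L libraries alone, where 3.13% of 12955 genes were called higher and 1.91% lower, 4 isotypes fell. Tuba1a changed by -0.39 ± 0.07 on the log2 scale (adjusted p = 0.00166), Tuba1b by -0.30 ± 0.06 (adjusted p = 0.00756), Tubb5 by -0.26 ± 0.06 (adjusted p = 0.0148) and Tubb4b by -0.22 ± 0.06 (adjusted p = 0.0408). In that fit Tuba1c (-0.12 ± 0.06), Tuba4a (-0.16 ± 0.06), Tubb6 (-0.12 ± 0.06), Tubb2a (-0.05 ± 0.09) and Tubb2b (-0.43 ± 0.22) did not pass, with adjusted p between 0.137 and 0.825. The 3 MRC+L libraries lay below the 3 MRC libraries in 7 of the 9, all but Tubb2a and Tubb2b, where 12.6% of all tested genes did so. The isotype steps were small, at most 1.32-fold for those 7 (Tuba1a), and rested on 3 libraries a group.

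Summed over the family and per kilobase, alpha tubulin RNA was 802 ± 193 CPM in PBS, 433 ± 12.0 in MRC and 360 ± 12.1 in MRC+L. Beta tubulin RNA was 1045 ± 189 CPM in PBS, 704 ± 23.1 in MRC and 598 ± 10.4 in MRC+L. PBS replicate 2 held the highest sums, 1011 for alpha and 1244 for beta, and the other 2 PBS libraries, at 761 and 632 for alpha and 1023 and 868 for beta, still exceeded every nanoparticle library. The alpha sum was the lower of the 2 in each group, and the ratio of alpha to beta was 0.762 ± 0.0449 in PBS, 0.615 ± 0.0174 in MRC and 0.601 ± 0.0150 in MRC+L. By the window shares given above, uncounted reads weigh more on Tuba1a, Tuba1b and Tuba1c than on Tubb5 and Tubb6. The alpha sum may therefore be too low, and its place below the beta sum is uncertain. These sums and the shares below are descriptions without a test.

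The makeup within each family also differed between groups, a measure that does not depend on library scaling. Tuba1b made up 64.7 ± 0.468% of the alpha sum in PBS, 53.5 ± 0.869% in MRC and 52.1 ± 0.663% in MRC+L. The shares of the other 3 alpha isotypes were larger with nanoparticles than without: Tuba1c went from 17.3 ± 0.405% to 20.7 ± 0.663% and 23.0 ± 0.843%, Tuba1a from 12.7 ± 0.397% to 17.3 ± 0.298% and 15.7 ± 0.658%, and Tuba4a from 5.29 ± 0.342% to 8.54 ± 0.259% and 9.18 ± 0.507%, in the order PBS, MRC and MRC+L. In no PBS library was the Tuba1b share under 64.2%, and in no nanoparticle library over 54.4%. PBS replicate 2 gave the 64.2%, the lowest Tuba1b share of the PBS libraries.

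Within the beta sum Tubb5 held 56.1 ± 2.64% in PBS, 60.6 ± 0.802% in MRC and 59.2 ± 0.407% in MRC+L, and Tubb4b 30.8 ± 2.29%, 25.8 ± 0.913% and 26.0 ± 0.327%. Tubb6 held 12.1 ± 0.363%, 10.6 ± 0.0689% and 11.4 ± 0.419% in the same order. Tubb2a went from 0.953 ± 0.0414% to 2.65 ± 0.111% and 3.01 ± 0.254%, and Tubb2b from 0.0568 ± 0.00884% to 0.325 ± 0.0708% and 0.283 ± 0.0703%, so the pair remained a small fraction of beta tubulin RNA. Counts not divided by length put Tuba4a at 9.63% of alpha counts in PBS and Tubb2a at 0.544% of beta counts.

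**Figure D3:**
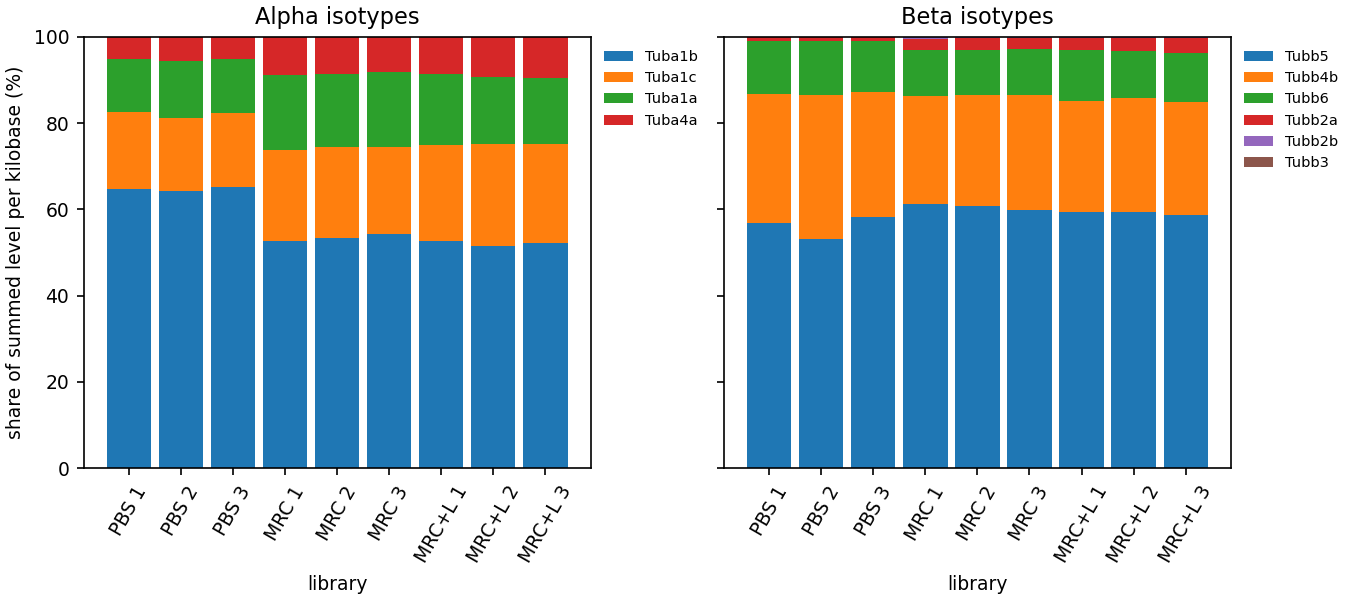
Share of each isotype in the alpha sum (left) and the beta sum (right) of each library, in percent of CPM per kilobase, stacked to 100. The Tuba1b block is 64.2 to 65.1% high in the PBS libraries and 51.4 to 54.4% in the others, and the Tubb2a block is largest in the MRC and MRC+L libraries. The Tubb2b and Tubb3 blocks are too thin to see.

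Ratios of counts within a library show the unequal changes directly. Tuba1b had 5.47, 5.10 and 5.37 counts for each Tuba1a count in the PBS libraries, 3.13, 3.28 and 3.25 in MRC and 3.32, 3.48 and 3.54 in MRC+L. Against Tuba1c the figures for Tuba1b were 2.98, 3.09 and 3.10 in PBS, 2.05, 2.07 and 2.23 in MRC and 1.95, 1.77 and 1.87 in MRC+L. In both ratios PBS was apart from the nanoparticle groups, and MRC+L lay above MRC for Tuba1a but below it for Tuba1c. These 3 genes share many windows, and the ratios rest on the reads that could be assigned to 1 of them.

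For the beta genes the ratio of Tubb4b to Tubb5 was 0.331, 0.394 and 0.313 in PBS, 0.256, 0.266 and 0.282 in MRC and 0.271, 0.277 and 0.280 in MRC+L. PBS replicate 2 gave the highest of these ratios, and the other PBS libraries still exceeded every nanoparticle library. Tubb2a counts were 0.781, 0.909 and 0.785% of Tubb5 counts in PBS, 2.12, 2.18 and 2.04% in MRC and 2.29, 2.37 and 2.71% in MRC+L, in 3 groups that did not overlap.

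**Figure D4:**
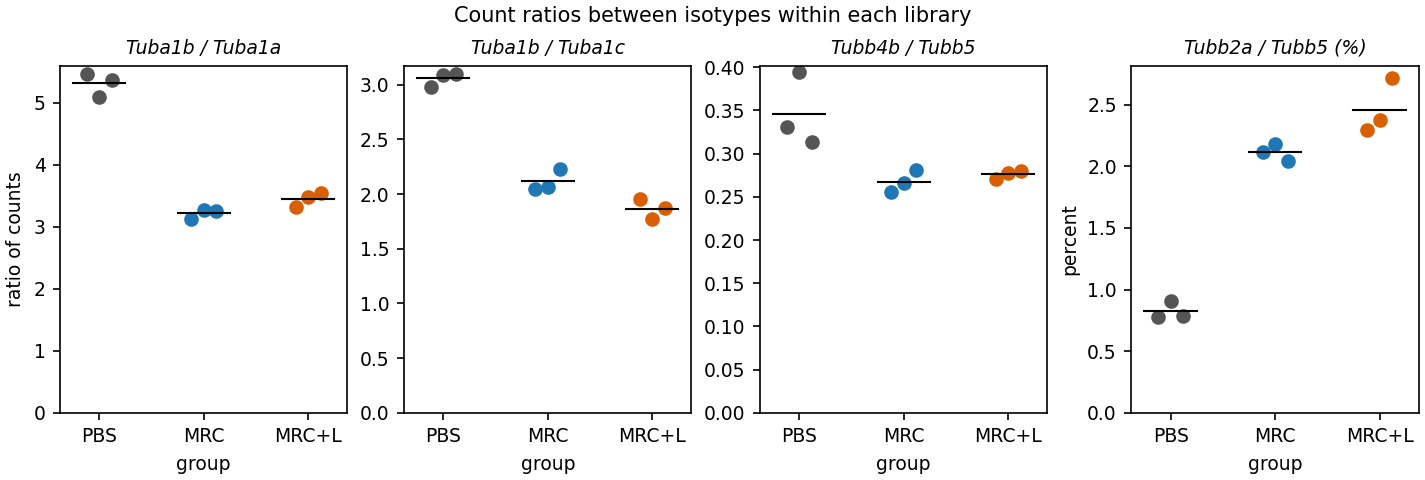
Count ratios of 4 isotype pairs in each library, on axes that start at 0. Points are libraries and bars are group means. Tuba1b relative to Tuba1a and Tuba1c, and Tubb4b relative to Tubb5, are lower in every MRC and MRC+L library than in every PBS library, while Tubb2a relative to Tubb5 is higher.

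Promoters are shown for 1 isotype that fell and 1 that rose, from 250 bases before to 50 after the start site, by the RefSeq table on GRCm38.p6, in which 8 of the 10 isotypes had an entry. Tubb2b and Tubb6 had none, so their promoters were not searched. Tubb4b, at chr2:25224653-25224952 on the minus strand, held CCAAT 5 times, in capitals. CCAAT is the core of the element bound by the factor NF-Y.
Tubb4b promoter: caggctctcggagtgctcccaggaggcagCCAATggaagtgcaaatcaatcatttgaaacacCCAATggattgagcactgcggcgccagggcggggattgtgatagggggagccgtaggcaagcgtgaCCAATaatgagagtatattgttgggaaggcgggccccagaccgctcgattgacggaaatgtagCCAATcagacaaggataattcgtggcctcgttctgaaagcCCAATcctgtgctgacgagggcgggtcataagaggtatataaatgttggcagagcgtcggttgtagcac
Tubb2a, at chr13:34077959-34078258 on the minus strand, held the palindrome TGACGTCA once, in capitals, the element bound by factors of the CREB and ATF families.
Tubb2a promoter: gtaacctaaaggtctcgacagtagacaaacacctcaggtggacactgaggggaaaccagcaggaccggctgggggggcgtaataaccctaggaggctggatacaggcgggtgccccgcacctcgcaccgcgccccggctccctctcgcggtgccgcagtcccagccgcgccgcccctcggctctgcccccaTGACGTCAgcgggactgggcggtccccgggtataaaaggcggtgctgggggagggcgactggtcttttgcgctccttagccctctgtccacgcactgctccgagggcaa
Both strands were searched in all 32851 promoters of the table, and 37.4% held CCAAT, 35.7% GGGCGG, 1.79% TGACGTCA, 12.4% TGACNNNGC and 0.965% TGATGNAAT. Of the 8 isotypes, 5 held CCAAT (Tubb4b, Tubb3, Tuba1a, Tuba1c and Tubb5), 7 held GGGCGG (all but Tuba1c), 1 held TGACGTCA (Tubb2a), 2 held TGACNNNGC (Tuba1a and Tuba1c) and none held TGATGNAAT. A match is a run of letters and not a measured site.

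The counts of the lists below are to be read against the 17.8% higher and 19.8% lower of all genes tested in MRC against PBS, and 21.8% and 24.5% in MRC+L against PBS. Among the other tubulin genes, 5 of 10 were tested, and 3 fell in MRC against PBS while none rose. Once the length trend was removed 2 fell. Tube1, epsilon tubulin of the centriole, was at 12.8, 11.4 and 15.8 CPM in PBS and 7.09, 6.93 and 8.23 in MRC, a log2 fold change of -0.84 (adjusted p = 0.00525). Tubg1, gamma tubulin, which nucleates microtubules, was at 58.6, 71.6 and 54.7 CPM in PBS and 44.8, 52.0 and 44.9 in MRC (-0.38, adjusted p = 0.0412), and its near-identical copy Tubg2, between which reads may be split, changed by -0.81 (adjusted p = 0.0268). Tubb4a, a further beta isotype, stood at 48, 60 and 32 counts in PBS and 28, 23 and 44 in MRC, which overlapped, and neither it (-0.59) nor Tubd1, delta tubulin (-0.14), passed. Tuba8 held 0 to 8 counts and Tuba3b 0 to 4 in a library, and Tuba3a, Tubal3 and Tubb1 were listed at 0 throughout. The same 3 genes fell in MRC+L against PBS.

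In the list of tubulin RNA autoregulation the clearest change was that of Ttc5, the factor that reads the nascent chain. Of 9 genes tested, 1 fell in MRC against PBS and 2 in MRC+L against PBS, with a median of 0.06 in the first. With the length trend removed 2 fell in MRC against PBS, and without PBS replicate 2 there was 1 that rose. Ttc5 was at 56.0, 64.4 and 57.5 CPM in PBS, 24.8, 29.9 and 31.0 in MRC and 26.1, 23.2 and 26.5 in MRC+L. Every PBS library was above every nanoparticle library, and Ttc5 was 2.07-fold lower in MRC (adjusted p = 0.000131) and 2.34-fold lower in MRC+L than in PBS. The second gene was Cnot10, a CCR4-NOT subunit, at -0.29 in MRC+L against PBS (adjusted p = 0.0248) and -0.22 in MRC (adjusted p = 0.0762).

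Newly made tubulin is folded by the chaperonin TRiC with prefoldin and joined into dimers by the tubulin cofactors. Of 8 cofactor genes 2 rose and 1 fell in both comparisons with PBS. Tbcel, a homologue of cofactor E that lowers tubulin stability, had 0, 10 and 1 counts in PBS, 183, 182 and 201 in MRC and 302, 233 and 311 in MRC+L. Nearly all of its PBS counts came from PBS replicate 2, and its fitted log2 fold change of 5.61 ± 0.52 in MRC against PBS (adjusted p = 3.3e-05) depends on the prior count because PBS was close to 0. Tbce, cofactor E, rose by 0.37 (adjusted p = 0.0153) and Tbcc, cofactor C, changed by -1.15 (adjusted p = 0.0135), while Arl2, a small GTPase of the cofactor complex, was at -0.52 (adjusted p = 0.105).

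Of the 14 TRiC and prefoldin genes none was called in MRC against PBS, with Cct4, a TRiC subunit, nearest at 0.40 (adjusted p = 0.0533), and 2 fell in MRC+L against PBS. This count depended on 1 library: leaving out PBS replicate 2 gave 6 genes that rose and 1 that fell in MRC against PBS, and removal of the length trend gave 4 and 1.

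Of 14 genes of the gamma tubulin ring complex and microtubule nucleation, 4 fell in MRC against PBS and 6 in MRC+L against PBS, and none rose. They included Tpx2, a spindle assembly factor (-0.52, adjusted p = 0.00143), and Haus1 of the augmin complex (-0.96, adjusted p = 0.0117), besides Tubg1 and Tubg2. Leaving out PBS replicate 2 gave 6 lower in MRC against PBS, and removal of the length trend 5. Either one gave 1 gene of the list higher in MRC+L against PBS. Among microtubule-associated and plus-end proteins 18 of 21 were tested, of which 3 rose and 5 fell in MRC against PBS, or 4 and 6 when PBS replicate 2 was left out. Camsap3, which binds minus ends, was at 4.39 CPM in PBS, 1.10 in MRC and 0.616 in MRC+L, a log2 fold change of -1.98 in MRC (adjusted p = 0.000647), whereas its relative Camsap1 rose by 0.87 (adjusted p = 0.00707). Tacc3, a spindle protein, changed by -1.08 (adjusted p = 0.000648) and Clip2, a plus-end protein, by -0.55 (adjusted p = 0.00294).

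Of the depolymerizing, sequestering and severing proteins 11 of 15 were tested, of which 3 rose and 5 fell in MRC against PBS. The kinesin-like depolymerase of the centromere, Kif2c, was at 134 CPM in PBS and 79.4 in MRC (-0.75, adjusted p = 0.000548). Its relative Kif2a rose from 85.8 to 129 CPM (0.59, adjusted p = 0.00157). Fignl1, an ATPase of the fidgetin family, changed by -0.49 (adjusted p = 0.00374). Stmn4, of the stathmin family that binds free tubulin, had 3, 5 and 1 counts in PBS and 41, 6 and 23 in MRC (adjusted p = 0.0123).

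Of 18 tubulin-modifying enzymes, 2 rose and 3 fell in MRC against PBS, no larger a share than among all genes (17.8% and 19.8%). Ttl, the ligase that restores the final tyrosine of alpha tubulin, rose from 40.3 to 63.4 CPM (0.65, adjusted p = 0.000543), and Ttll7, which adds glutamates to beta tubulin, from 43.3 to 75.3 CPM (0.80, adjusted p = 0.00479). Svbp, the partner of the vasohibins that remove that tyrosine, fell from 15.4 to 6.62 CPM, a change of -1.21 (adjusted p = 0.0074), and Tpgs2, a subunit of a polyglutamylase, changed by -0.62 (adjusted p = 0.0179). The count of falling enzymes was 7 when PBS replicate 2 was left out and 6 once the length trend was removed.

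Of 18 kinesin and dynein genes 4 rose and 4 fell in MRC against PBS, shares near those of all genes (17.8% and 19.8%). The mitotic kinesins Kif23 (-0.67, adjusted p = 0.00267) and Kif11 (-0.66, adjusted p = 0.00813) and Dctn1, the large dynactin subunit (-0.42, adjusted p = 0.0139), were lower, and Kif13b, a transport kinesin, was higher (1.06, adjusted p = 0.00837). Of the 6 actin genes listed, 2 were tested, Actb and Actg1, and both fell. Actb was at 2285, 2525 and 2108 CPM in PBS and 988, 1019 and 1048 in MRC, and Actg1 at 1585, 1723 and 1385 in PBS and 562, 626 and 617 in MRC. Their log2 fold changes of -1.18 and -1.38 (adjusted p = 2.9e-05 and 1.7e-05) stood beside the -1.16 of Tuba1b. The 2 actin genes are close copies of each other with many pseudogenes, so their split is uncertain. No gene of any of these lists was called in MRC+L against MRC in the fit to 9 libraries, which shares its spread with PBS. Leaving out PBS replicate 2 gave 1 cofactor gene called higher there.

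**Figure D5:**
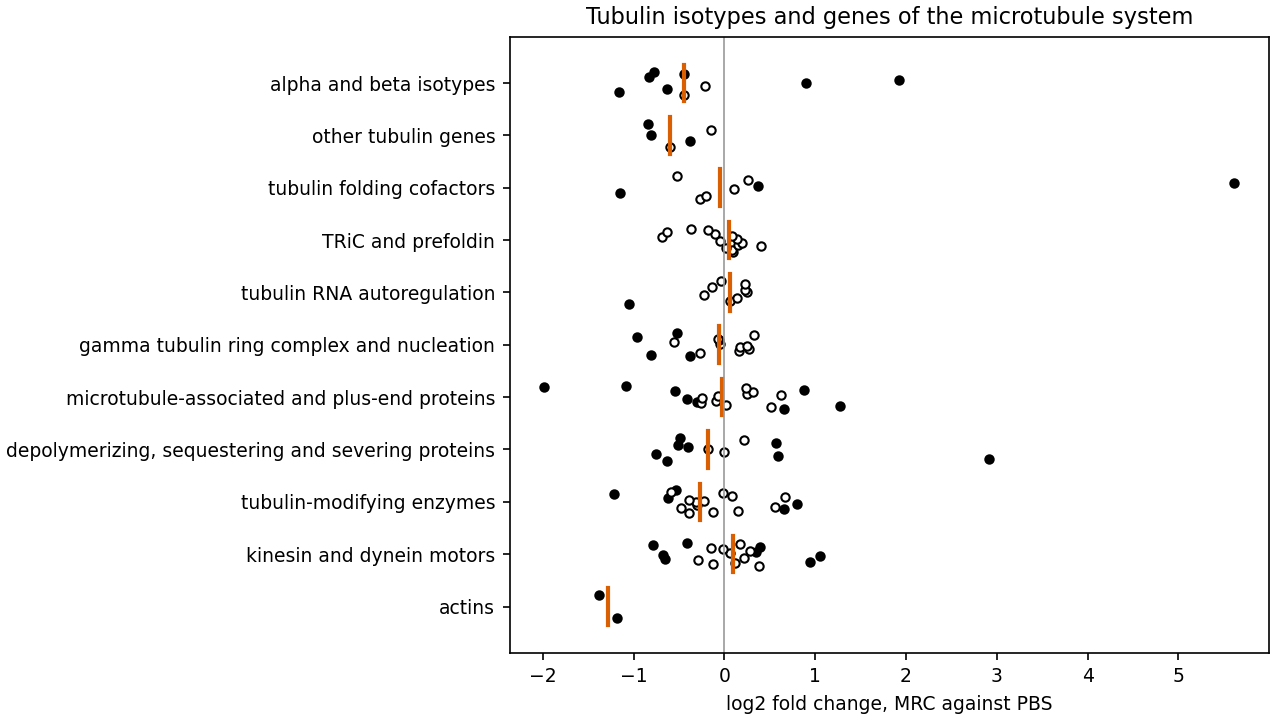
Log2 fold change of MRC against PBS for the tested genes of each list. Filled points passed an adjusted p of 0.05, and the orange bar is the list's median. The isotype median lies at -0.45 and the actin median at -1.28, while Tbcel is the point at 5.61.

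Across the 9 libraries the isotypes went together by the following Pearson r of log2 CPM, which are descriptions over libraries that fall into 3 groups. Only the closest other isotype of each is given, and the pairs are not ranked. Tubb4b and Tubb6 were each most like the other (r = 0.993). Tuba1c (0.991), Tuba1b (0.990) and Tubb5 (0.980) were most like Tubb4b. Tuba1a was most like Tubb5 (0.962), and Tuba4a was the loosest, most like Tuba1a at 0.860. Tubb2a and Tubb2b were most like each other (0.935). Among the tested protein-coding genes outside the isotypes, those closest to the summed isotypes per kilobase were Acads (0.998), Ppp1ca (0.998), Lta4h (0.997), Nt5dc2 (0.997) and Fzr1 (0.996).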

How the data were processed

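Total RNA of 9 libraries of 4T1 cells, 3 in each group, was extracted with Trizol and made into TruSeq libraries, as the labels' protocols state. The deposited values are raw counts of read pairs per gene over exons, made with featureCounts 2.0.1 on the Ensembl release 104 annotation of GRCm39, with no strand option and no multimapping reads, per the file headers. The aligner is not given in the sources used here. Symbols came from GENCODE M21 by gene identifier, matching 52083 of 55416 genes (94.0%).

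Counts were scaled by TMM, genes were kept by filterByExpr (minimum count 10, minimum total 15), and all 9 libraries were fitted together with edgeR 4.0.16 (quasi-likelihood F-test, R 4.3.3), which left 13439 genes. P-values were adjusted over all of them by the Benjamini-Hochberg method, and genes under 0.05 were called. The model was run on simulated counts given the same spread in every group. Those counts left out the larger spread of PBS, so the run cannot show how the calls depend on it. The alternatives were DESeq2 1.42.0, its size factors, upper-quartile factors, no filter, limma 3.58.1 voom with sample weights, the 2 groups alone, a replicate block, removal of each library's trend on gene length, and each library left out. Named genes were all 10 isotypes, every other tubulin gene with a count and, of each other list, up to 4 genes with the smallest adjusted p in MRC against PBS. Single marker genes were named after their values were seen. The isotypes and lists were chosen with earlier results of these data known. Library totals of 15019765 to 20044166 counts put the limit that a count of 0 allows (3 counts) at 0.150 to 0.200 CPM. Intervals of that kind cover counting error only. Some sequences are not reported here.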

Additional observations from a re-analysis of the deposited data

How the results depend on the processing

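Over all alternatives for a single isotype's log2 fold change, 437 kept direction and side of the threshold, 17 gained a call, 3 lost one and 2 changed sign. The sign changes were Tuba4a in MRC against PBS (0.0489 without PBS replicate 2, within -0.388 to 0.0489 with 1 library left out) and Tubb2a in MRC+L against MRC (0.0214 with the length trend removed), neither called. Genes called higher and lower in MRC+L against MRC numbered 7 and 8 with no filter, 3 and 1 with the length trend removed, 406 and 248 in the 2 groups alone, 12 and 11 by DESeq2 and 143 and 119 by voom with sample weights, against 0 and 0. Isotypes called lower there numbered 4 in the 2 groups alone and 3 by voom, against 0. Voom also called 4433 and 4418 genes in MRC against PBS and 4866 and 4990 in MRC+L against PBS, against 2394, 2656, 2926 and 3286. The cause was not tested. With 1 library left out, 1684 to 3393 genes were higher and 1878 to 3569 lower in MRC against PBS, 2226 to 3773 and 2476 to 3886 in MRC+L against PBS, and 0 to 43 and 0 to 46 in MRC+L against MRC. The isotypes called lower ranged from 4 to 7, 6 to 7 and 0 to 1, and those called higher were 2, 2 and 0 each time. Leaving out PBS replicate 2 gave the 43 and 46 genes and the 1 isotype (Tuba1a). Same-numbered libraries did not deviate together (correlations -0.185 to 0.0385). With the replicate number as a block, 2059 genes were higher and 2224 lower in MRC against PBS and 2630 and 2860 in MRC+L against PBS, with the same counts of isotypes (2 and 5, 2 and 6). Depth limits Tubb3 and Tubb2b.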
